A study of Mus musculus with 6 samples.

Results

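The genes described here are 43 genes of ribosome biogenesis and of the nucleolus, read in activated mouse CD8 T cells with and without the mitochondrial phosphatase PTPMT1. They were taken by symbol from a table of 54532 genes, where each symbol matched 1 row, and all 43 passed the filter on low values (a mean of at least 0.5 FPKM over the 6 samples, where FPKM is read fragments per kilobase of gene after correcting for sequencing depth). The cells came from spleen and lymph nodes of mice labelled wild type (WT, n = 3) or PTPMT1 knockout (KO, n = 3), and both groups were stimulated in vitro for 3 days with beads carrying CD3 and CD28 antibodies. The comparison is KO against WT, and no unstimulated cells were analysed here. Strain, age, sex, the exons removed and any Cre driver were not stated. The labels do not say that the samples of a group came from separate mice. Reads of Xist and Ddx3y, given below, show that KO replicate 3 did not come from the same mouse as KO replicates 1 and 2. For the other samples this is not known. P-values measure only how far these libraries varied, part of which may be technical.

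Ribosomes are built in the nucleolus. RNA polymerase I copies the ribosomal DNA into a long precursor, small nucleolar RNPs (snoRNPs) mark bases of that precursor for methylation or pseudouridylation, and large sets of assembly factors cut, fold and export the parts that become the small and the large subunit. In T cells the nucleolus enlarges after antigen receptor stimulation, when the transcription factor MYC, mTORC1 signalling and cell growth raise the demand for ribosomes.

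PTPMT1 is a mitochondrial phosphatase needed to make the lipid cardiolipin. The libraries differed in ways other than the genotype label. Rebuilt read totals were 14932604 to 16819913 per sample, and each member had 132 to 119706 reads per sample. Ptpmt1 was lower in each KO sample (1.0004 to 1.58 FPKM) than in each WT sample (3.75 to 4.13 FPKM). Mitochondrial genes took 7.53% of the reads of KO replicate 2 and 2.38% of those of KO replicate 3, against 3.38% to 4.76% in the other 4 libraries. Ribosomal protein genes took 19.0%, 10.9% and 12.8% to 15.2%, in the same order. KO replicate 3 had 0 reads of Xist, the RNA of the inactive X chromosome, and 1837 reads of the Y-linked Ddx3y, whereas the other 5 libraries had at least 3513 and 0. The 7 T cell and CD8 markers were present in every library, with a summed level of 1423 to 1815 FPKM in WT and 946 to 1687 FPKM in KO. Of the other-cell lists, the 5 gamma-delta T cell markers summed to 174 FPKM in KO replicate 3 against 26.4 to 64.3 FPKM elsewhere, with Sox13 at 0 in 1 or more libraries. The 6 neutrophil and mast cell markers summed to 79.6 FPKM there against 6.89 to 18.0 FPKM, with S100a8 and S100a9 at 0 somewhere. Mcpt8, Cpa3, Ms4a2 and Elane were highest in KO replicate 3, at 43.3, 25.9, 5.91 and 2.20 FPKM. The neutrophil genes S100a8 and S100a9 were not, at 1.76 and 0.64 FPKM in that library against 1.89 and 2.73 FPKM in WT replicate 3. B cell markers summed to 318 to 408 FPKM in WT and 258 to 332 FPKM in KO, with Ms4a1 at 0 somewhere. CD4 and regulatory T cell markers summed to 1.67 to 4.09 and 2.05 to 5.995 FPKM, with Cd4 and Cd40lg at 0 somewhere. Natural killer markers summed to 18.7 to 27.5 and 18.2 to 23.8 FPKM, with Ncr1 and Klra8 at 0 somewhere. Macrophage, monocyte and dendritic cell markers summed to 4.25 to 6.03 FPKM in WT and 1.51 to 6.82 in KO, with Csf1r, Adgre1 and Cd14 at 0 somewhere. Erythroid and platelet markers summed to 4.02 to 14.8 and 8.48 to 12.2 FPKM. The part of these library differences in the results below was not tested, and in bulk RNA a shift in cell makeup and a change of RNA per cell cannot be told apart.

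Every one of the 43 genes had a higher mean in KO than in WT on the log2(FPKM + 0.5) scale, which understates the change of low genes. The log2 fold changes ran from 0.37 for Polr1e, a subunit of RNA polymerase I, to 1.43 for Nop58, a core protein of the methylation-guiding snoRNPs, with a median of 0.81. The median over all 12654 tested genes was 0.03, and 52.4% of those genes had a fold change above 0. A log2 fold change of at least 1 was seen in 12 of the 43, against 3.74% of all tested genes. No gene of the 43 was called at a limma adjusted p under 0.05 over all genes, where 0.0395% of all tested genes were called, and the adjusted p values ran from 0.0884 to 0.383. With the p left unadjusted, 27 of the 43 passed 0.05 as higher and 0 as lower, against 11.5% and 10.2% of all tested genes. In limma-voom on rebuilt reads the count was 28, against 10.4% of all tested genes, also with 0 called. For 21 of the 43, all 3 KO samples lay above all 3 WT samples, a pattern held by 14.5% of all tested genes, and for 0 they lay below. With each sample rescaled to the same sum of FPKM all 43 were still higher in KO, against 34.3% of all tested genes. The median was 0.54, where that of all genes was -0.20. That rescaling divided KO replicate 2 by 1.42 and KO replicate 3 by 0.84. Of the 43, 14 then had an unadjusted p under 0.05, against 3.83% of all tested genes as higher, and 8 did not overlap, against 5.70% with KO above WT. Among all genes that passed 0.05 without adjustment, those higher in KO made up 22.9% after that rescaling and 52.9% before it.

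**Figure D1:**
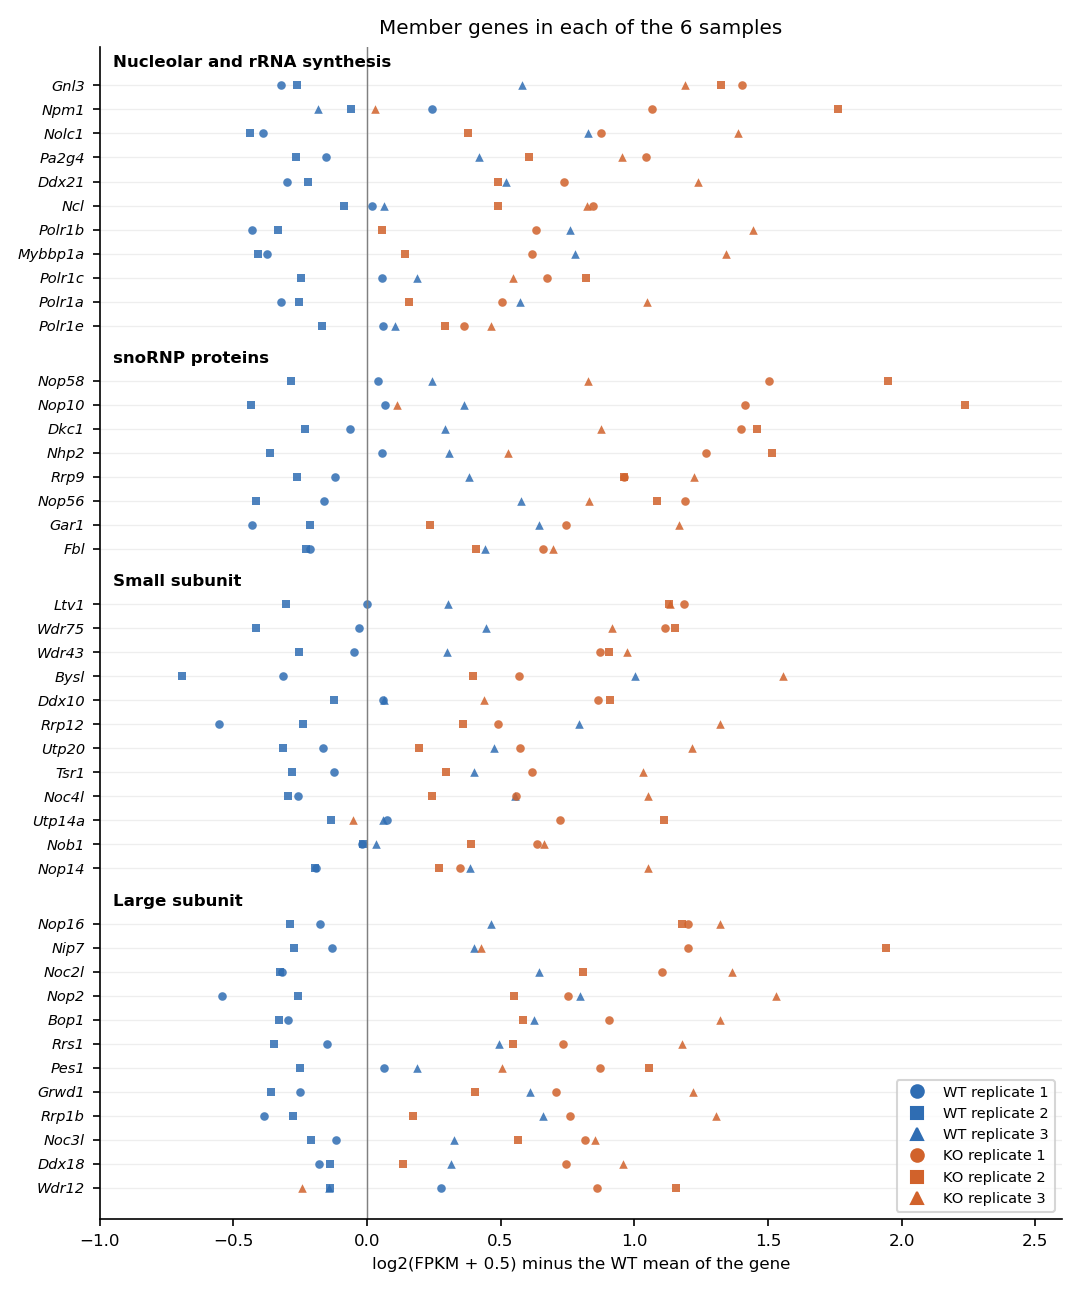
Level of each of the 43 genes in each sample as log2(FPKM + 0.5) minus the gene's WT mean (horizontal axis), with 1 gene per row in 4 role groups. Blue symbols are WT and orange symbols KO, and the symbol shape gives the replicate. WT replicate 3 (blue triangle) is the highest WT sample for 40 of 43 genes, and 21 genes have all KO symbols to the right of all WT symbols.

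The order of the KO samples differed between genes. For 26 of the 43 the highest KO sample was replicate 3, for 12 it was replicate 2 and for 5 it was replicate 1. The 12 led by KO replicate 2 were Npm1, Polr1c, Nop58, Dkc1, Nhp2, Nop10, Wdr75, Utp14a, Ddx10, Wdr12, Pes1 and Nip7. Among the 22 genes whose groups overlapped, KO replicate 2 lay at or below the highest WT sample in 18 and KO replicate 3 in the other 4, which were Npm1, Nop10, Utp14a and Wdr12. KO replicate 1 lay at or below the highest WT sample in 7. The highest WT sample was replicate 3 in 19 of these 22 genes and replicate 1 in 3.

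Promoter sequence was examined because the genes were higher together. RefSeq start sites (GRCm38.p6) were matched for 38 of the 43, giving 42 windows from 250 bases before to 50 after a start. CACGTG, the palindromic E-box bound by MYC and MAX among other factors, stood in 8 of the 42 windows (19.0%), each of a different gene, against 7.15% of 32851 such windows of all genes. In 7 of the 8 it began 3 to 41 bases after the annotated start, and in Nop2 60 bases before it. Over all windows, 13.9% of E-boxes began after the start, in a stretch that makes up 16.7% of the window. CCGGAAG, the core letters of ETS family sites, searched on both strands, stood in 14 windows of 13 genes (33.3% of windows, against 8.86% of all windows). A match to it cannot overlap one to CACGTG, and Nop2, Tsr1, Grwd1 and Ltv1 held both. The median GC content was 58.8% in these windows and 52.7% in all windows, and no account was taken of that difference. CCAAT, also searched on both strands, stood in 33.3% of the 42 windows and 37.4% of all. A match is a run of letters, not a measured binding site. The 8 genes with an E-box had a median log2 fold change of 0.79 and the 30 matched genes without one 0.78. For the ETS core these medians were 0.78 in the 13 genes with it and 0.81 in the 25 matched genes without it. The 8 E-boxes are shown, 5′ to 3′ in the direction of transcription with up to 12 bases on each side and the E-box in capitals, to show its place in the 8 members that hold it. The other 30 matched members do not hold these letters in the window.
Nop2 (GRCm38.p6 chr6:125131811-125131840, plus strand): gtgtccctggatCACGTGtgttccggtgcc
Pes1 (GRCm38.p6 chr11:3963965-3963994, plus strand): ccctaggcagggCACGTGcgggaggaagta
Wdr43 (GRCm38.p6 chr17:71616220-71616249, plus strand): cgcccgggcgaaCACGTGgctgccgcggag
Tsr1 (GRCm38.p6 chr11:74898092-74898121, plus strand): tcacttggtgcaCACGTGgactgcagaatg
Ltv1 (GRCm38.p6 chr10:13193092-13193121, minus strand): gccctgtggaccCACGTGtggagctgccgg
Grwd1 (GRCm38.p6 chr7:45830740-45830767, minus strand): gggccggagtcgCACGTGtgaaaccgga
Utp20 (GRCm38.p6 chr10:88826765-88826789, minus strand): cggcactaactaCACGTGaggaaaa
Mybbp1a (GRCm38.p6 chr11:72441355-72441376, plus strand): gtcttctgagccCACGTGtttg

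Of these 8, Pes1, Wdr43 and Ltv1 are described with their values further on. Nop2 had 10.9, 13.4 and 28.4 FPKM in the WT samples and 27.5, 23.9 and 47.6 FPKM in the KO samples. Tsr1, a GTPase-like factor of late small subunit maturation, had 8.71, 7.76 and 12.7 FPKM in the WT samples and 14.9, 11.8 and 20.0006 FPKM in the KO samples. Grwd1, a histone-binding factor of large subunit assembly, had 7.51, 6.93 and 14 FPKM in the WT samples and 15.1, 12.1 and 21.7 FPKM in the KO samples. In these 3 genes WT replicate 3 was above KO replicate 2, and KO replicate 3 was the highest sample. In Nop2, WT replicate 3 was also just above KO replicate 1. Utp20, a scaffold of the processome, had 3.87, 3.44 and 6.31 FPKM in the WT samples and 6.79, 5.11 and 10.9 FPKM in the KO samples. Mybbp1a had 19.7, 19.2 and 44.5 FPKM in the WT samples and 39.7, 28.4 and 65.9 FPKM in the KO samples. In both, KO replicate 3 was highest and WT replicate 3 was above KO replicate 2. In Mybbp1a, but not in Utp20, WT replicate 3 was also above KO replicate 1.

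The 250 bases before the start are shown for Nop2, a methyltransferase of large subunit RNA, because it holds both an E-box and an ETS core upstream of its start (both in capitals).
Nop2 (GRCm38.p6 chr6:125131633-125131882, plus strand): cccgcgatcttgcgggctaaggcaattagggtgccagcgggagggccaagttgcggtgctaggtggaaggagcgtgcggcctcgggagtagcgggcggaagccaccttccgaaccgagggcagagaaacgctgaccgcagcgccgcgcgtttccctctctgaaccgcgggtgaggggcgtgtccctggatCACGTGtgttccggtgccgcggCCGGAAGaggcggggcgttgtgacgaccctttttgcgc

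Among the 11 genes of the nucleolar scaffold and of ribosomal RNA synthesis, 6 had an unadjusted p under 0.05 and 5 did not overlap. For this and the following role groups, the shares of all tested genes were 11.5% (higher at that p) and 14.5% (KO above WT). Npm1 (nucleophosmin, a chaperone of nucleolar assembly; chromosome 11, 33152287 to 33163206, minus strand, GENCODE M21) was the most abundant of the 43, at 1192, 967 and 888 FPKM in WT replicates 1 to 3 and 2109, 3423 and 1029.8 FPKM in KO replicates 1 to 3. KO replicates 1 and 2 lay above all WT samples and KO replicate 3 lay between WT replicates 1 and 2. The group means differed by less than the spread of the KO samples (WT 1016 ± 158 FPKM, KO 2187 ± 1198 FPKM; mean ± SD, 3 samples; log2 fold change 0.95, SE 0.454, limma adjusted p 0.271). Npm1 has processed pseudogenes whose reads can be shared with it. Ncl (nucleolin, which binds precursor ribosomal RNA; chromosome 1, 86344719 to 86359400, minus strand) had 153, 142 and 158 FPKM in the WT samples and 272, 213 and 268 FPKM in the KO samples. Every KO sample was above every WT sample, and the WT samples were close together (WT 151 ± 8.04 FPKM, KO 251 ± 33.1 FPKM; mean ± SD, 3 samples; log2 fold change 0.72, SE 0.186, limma adjusted p 0.116). Pa2g4, which encodes the growth-regulated nucleolar protein EBP1, had 86.4, 79.7 and 128 FPKM in the WT samples and 199, 146 and 187 FPKM in the KO samples, again without overlap (log2 fold change 0.87, SE 0.244, limma adjusted p 0.13). Gnl3 (nucleostemin, a GTP-binding nucleolar protein of dividing cells; chromosome 14, 31012433 to 31019152, minus strand) had 7.43, 7.77 and 14.3 FPKM in WT replicates 1 to 3 and 25.7, 24.3 and 22.1 FPKM in KO replicates 1 to 3. Its KO samples were close together and above WT replicate 3, which was well above the other WT samples (WT 9.83 ± 3.87 FPKM, KO 24 ± 1.8 FPKM; mean ± SD, 3 samples; log2 fold change 1.31, SE 0.261, limma adjusted p 0.095). Its exons overlap a few bases of Pbrm1 exons on the other strand.

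The 4 polymerase I subunits were not alike in order. Polr1c, which RNA polymerases I and III share, did not overlap (WT 27.5 ± 4.18 FPKM, KO 44.1 ± 4.25 FPKM; mean ± SD, 3 samples; log2 fold change 0.68, SE 0.177, limma adjusted p 0.117). Pairs of values joined by ± from here on are the WT and then the KO mean with its SD over 3 samples. Polr1e had 5.69 ± 0.61 and 7.5 ± 0.477 FPKM (adjusted p = 0.219 in limma), also without overlap and with the smallest fold change of the 43. The largest subunits, Polr1a and Polr1b, form the catalytic centre. Polr1a had 3.64 ± 1.54 and 5.6 ± 1.93 FPKM. Polr1b had 4.19 ± 2.33 and 7.21 ± 3.76 FPKM. In both, WT replicate 3 was above KO replicates 1 and 2. They were also among the least abundant of the 43, Polr1a being the lowest on the FPKM scale. The helicase gene Ddx21, which acts in polymerase I transcription and rRNA processing, had 42.4 ± 14.3 and 74.5 ± 20.4 FPKM. Nolc1, which encodes a snoRNP chaperone, had 18.3 ± 10.2 and 32.5 ± 11.4 FPKM. Mybbp1a, a nucleolar MYB-binding protein, had 27.8 ± 14.4 and 44.7 ± 19.2 FPKM. In these 3 genes WT replicate 3 was above 1 or more KO samples, and KO replicate 3 was the highest of all 6 samples.

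**Figure D2:**
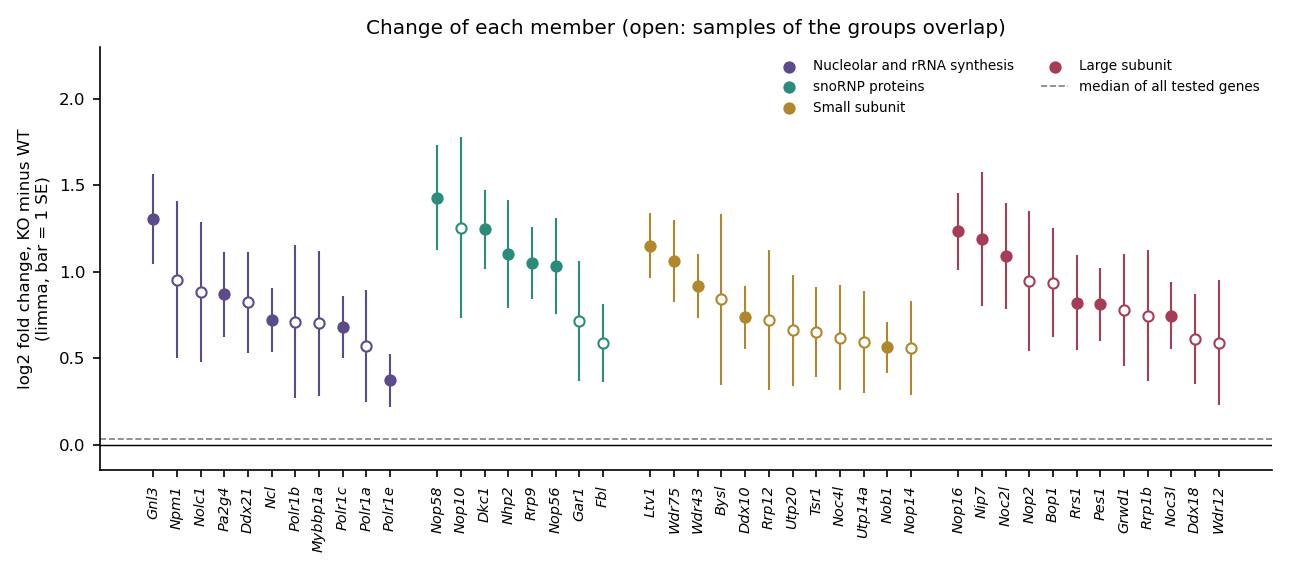
Log2 fold change (KO minus WT, limma on log2(FPKM + 0.5), vertical axis) of each of the 43 genes, ordered within 4 role groups, with 1 SE as bars. Filled symbols are genes whose KO samples all lie above the WT samples, open symbols genes whose groups overlap, and the dashed line is the median of all tested genes (0.03). All symbols lie above 0, and the snoRNP group has the highest median, 1.08.

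The 8 snoRNP proteins had the highest median of the 4 role groups (1.08, against 0.72 for the nucleolar group, 0.69 for the small subunit and 0.82 for the large subunit groups; the differences were not tested). Of the 8, 7 had an unadjusted p under 0.05, 6 had a log2 fold change of at least 1 and 5 did not overlap. Box C/D snoRNPs guide methylation of ribosomal RNA, with Nop56 and Nop58 as paired scaffold proteins and Fbl (fibrillarin) as the methyltransferase. Nop58 (chromosome 1, 59684971 to 59719044, plus strand) had 18.1, 14.3 and 20.9 FPKM in WT replicates 1 to 3 and 50.7, 69.1 and 31.6 FPKM in KO replicates 1 to 3. All KO samples were above all WT samples, but KO replicate 2 was more than KO replicate 3 by 1.12 on the log2 scale (WT 17.8 ± 3.28 FPKM, KO 50.5 ± 18.8 FPKM; mean ± SD, 3 samples; log2 fold change 1.43, SE 0.304, limma adjusted p 0.0975). Nop56 (chromosome 2, 130274430 to 130279313, plus strand) had 42.6, 35.6 and 71.3 FPKM in the WT samples and 109, 102 and 85.2 FPKM in the KO samples. Its groups did not overlap, WT replicate 3 being the nearest to KO (WT 49.8 ± 18.9 FPKM, KO 98.7 ± 12.3 FPKM; mean ± SD, 3 samples; log2 fold change 1.04, SE 0.278, limma adjusted p 0.122). Fbl had 41.8 ± 11.9 and 61.8 ± 6.6 FPKM (log2 fold change 0.59, SE 0.228, limma adjusted p 0.201), with WT replicate 3 just above KO replicate 2. Rrp9, a protein of the U3 snoRNP that guides the early cuts of the precursor, had 11.6 ± 2.96 and 24.2 ± 2.68 FPKM (log2 fold change 1.05, SE 0.209, limma adjusted p 0.0948) with no overlap.

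Box H/ACA snoRNPs turn uridines of ribosomal RNA into pseudouridines and hold 4 proteins, the enzyme dyskerin (Dkc1) and its partners Nhp2, Nop10 and Gar1. Dkc1 (chromosome X, 75095854 to 75109777, plus strand) had 29.9, 26.5 and 38.3 FPKM in the WT samples and 83.1, 86.7 and 57.7 FPKM in the KO samples. The KO samples were all above the WT samples, KO replicate 3 being the nearest (WT 31.6 ± 6.08 FPKM, KO 75.8 ± 15.8 FPKM; mean ± SD, 3 samples; log2 fold change 1.24, SE 0.229, limma adjusted p 0.0884). Nhp2 (chromosome 11, 51619735 to 51623714, plus strand) had 117, 87.2 and 139 FPKM in the WT samples and 272, 322 and 162 FPKM in the KO samples, without overlap although KO replicate 3 was close to WT replicate 3 (log2 fold change 1.10, SE 0.312, limma adjusted p 0.13). Nop10, the smallest of the 4 proteins, had 91.9, 64.8 and 113 FPKM in the WT samples and 234, 415 and 94.6 FPKM in the KO samples. KO replicates 1 and 2 were well above WT, whereas KO replicate 3 was below WT replicate 3 (WT 89.8 ± 24.1 FPKM, KO 248 ± 160.4 FPKM; mean ± SD, 3 samples; log2 fold change 1.25, SE 0.524, limma adjusted p 0.225), and the gap between KO replicates 2 and 3 (2.13 on the log2 scale) was the widest of the 43 genes. Gar1 went the other way within the KO group, with KO replicate 3 highest and KO replicate 2 below WT replicate 3 (24 ± 10.2 and 38.9 ± 12.4 FPKM; adjusted p = 0.279 in limma). Genes of 1 complex were thus led by different KO samples. Per unit of gene length Nhp2 and Nop10 were above Dkc1, and Gar1 below it, in both groups by the group means.

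The small subunit group holds 12 genes of the processome, the particle that forms on the new precursor, and of later cytoplasmic maturation. Of these, 6 had an unadjusted p under 0.05 and 5 did not overlap. Ltv1, which is released from the nearly finished small subunit, had the smallest p of the 43 (chromosome 10, 13178140 to 13193168, minus strand). It had 13.5, 10.9 and 16.8 FPKM in WT replicates 1 to 3 and 31.5, 30.3 and 30.3 FPKM in KO replicates 1 to 3. The KO samples were close together and all above WT (WT 13.8 ± 2.97 FPKM, KO 30.7 ± 0.669 FPKM; mean ± SD, 3 samples; log2 fold change 1.15, SE 0.188, limma adjusted p 0.0884). Wdr75 and Wdr43 belong to the UTP-A complex that starts processome assembly. Wdr75 had 10.3, 7.75 and 14.5 FPKM in the WT samples and 23.3, 23.9 and 20.3 FPKM in the KO samples. Wdr43 had 36.3, 31.4 and 46.4 FPKM in the WT samples and 69.1, 70.9 and 74.3 FPKM in the KO samples. For both the KO samples were close together and above every WT sample (log2 fold change 1.06, SE 0.236, limma adjusted p 0.105 for Wdr75; log2 fold change 0.92, SE 0.187, limma adjusted p 0.0954 for Wdr43). Ddx10, a helicase, had 24.4, 21.5 and 24.5 FPKM in the WT samples and 43.1, 44.4 and 31.9 FPKM in the KO samples, with KO replicate 3 the lowest KO sample but above WT (log2 fold change 0.74, SE 0.183, limma adjusted p 0.111). Utp14a, which activates the helicase that releases the U3 snoRNA, had 19.7, 16.9 and 19.5 FPKM in the WT samples and 31, 40.8 and 18 FPKM in the KO samples. KO replicate 3 lay below WT replicates 1 and 3, so the groups overlapped (log2 fold change 0.59, SE 0.295, limma adjusted p 0.288). Nob1, the nuclease that makes the mature end of small subunit RNA, had 16.1 ± 0.334 and 24.1 ± 2.48 FPKM (log2 fold change 0.56, SE 0.148, limma adjusted p 0.119) and did not overlap. The other 6 (Nop14, Rrp12, Noc4l, Utp20, Bysl and Tsr1) had log2 fold changes of 0.56 to 0.84, and in each of them WT replicate 3 was above 1 or both of KO replicates 1 and 2. Bysl (bystin), an assembly factor of the small subunit, had 4.54 ± 3.31 and 7.93 ± 3.94 FPKM (adjusted p = 0.361 in limma).

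The large subunit group holds 12 assembly factors, of which 8 had an unadjusted p under 0.05 and 6 did not overlap. Pes1, Bop1 and Wdr12 form 1 complex (PeBoW) needed to process the RNA of the large subunit. Pes1 (chromosome 11, 3963975 to 3980004, plus strand) had 36.9, 29.6 and 40.2 FPKM in the WT samples and 65.1, 73.8 and 50.3 FPKM in the KO samples, without overlap (log2 fold change 0.81, SE 0.209, limma adjusted p 0.116). Bop1 had 17.1 ± 7.12 and 32.3 ± 8.46 FPKM (log2 fold change 0.94, SE 0.316, limma adjusted p 0.163), with WT replicate 3 above KO replicate 2 only. Wdr12 had 8.56 ± 1.58 and 14.1 ± 6.36 FPKM (log2 fold change 0.59, SE 0.364, limma adjusted p 0.38), with KO replicate 3 below all WT samples. Bop1 and Wdr12 thus overlapped with WT through different samples, and Pes1 did not overlap. Nop16 had 13.7, 12.7 and 21.7 FPKM in WT replicates 1 to 3 and 36.5, 35.9 and 39.7 FPKM in KO replicates 1 to 3. Its KO samples were close together and all above WT (WT 16 ± 4.93 FPKM, KO 37.4 ± 2.02 FPKM; mean ± SD, 3 samples; log2 fold change 1.23, SE 0.224, limma adjusted p 0.0884). Noc2l, a partner of early large subunit precursors (chromosome 4, 156236010 to 156247616, plus strand), had 23.8, 23.7 and 46.8 FPKM in the WT samples and 64.5, 52.5 and 77.4 FPKM in the KO samples and no overlap (log2 fold change 1.09, SE 0.305, limma adjusted p 0.129). Its exons overlap those of Samd11 on the other strand. Nip7, a small RNA-binding factor (chromosome 8, 107056877 to 107060931, plus strand), had 17.8, 16.1 and 25.9 FPKM in the WT samples and 45.5, 76.4 and 26.4 FPKM in the KO samples. KO replicate 2 stood far above the rest and KO replicate 3 just above WT replicate 3 (WT 19.95 ± 5.26 FPKM, KO 49.5 ± 25.2 FPKM; mean ± SD, 3 samples; log2 fold change 1.19, SE 0.389, limma adjusted p 0.157). Noc3l, a partner of Noc2l, and Rrs1, which helps bring the smallest ribosomal RNA to the precursor, did not overlap either, at 7.38 ± 1.62 and 12.6 ± 1.38 FPKM and 19.1 ± 6.27 and 33.6 ± 7.95 FPKM. In Nop2, Rrp1b, Ddx18 and Grwd1 the groups overlapped, with log2 fold changes of 0.94, 0.75, 0.61 and 0.78, and in each WT replicate 3 was above KO replicate 2.

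Averaged over genes, the 43 stood at -0.15, -0.27 and 0.42 in WT replicates 1 to 3 and at 0.86, 0.76 and 0.93 in KO replicates 1 to 3, as log2 differences from the WT mean. WT replicate 3 was thus between the other WT samples and KO. It was the highest WT sample for 40 of 43 genes (93.0%), against 5059 of the 12654 tested genes, whose mean was 0.01 in that sample. KO replicate 3 was above WT replicate 3 for 40 of 43 genes, KO replicate 1 for 36 and KO replicate 2 for 25, against 50.5%, 52.5% and 50.7% of all tested genes. The snoRNP group was highest in KO replicate 2 (1.23) and lowest of KO in replicate 3 (0.78), while the nucleolar, small subunit and large subunit groups were highest in KO replicate 3 (0.95, 0.94 and 0.98) and lowest of KO in replicate 2 (0.59, 0.61 and 0.76).

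**Figure D3:**
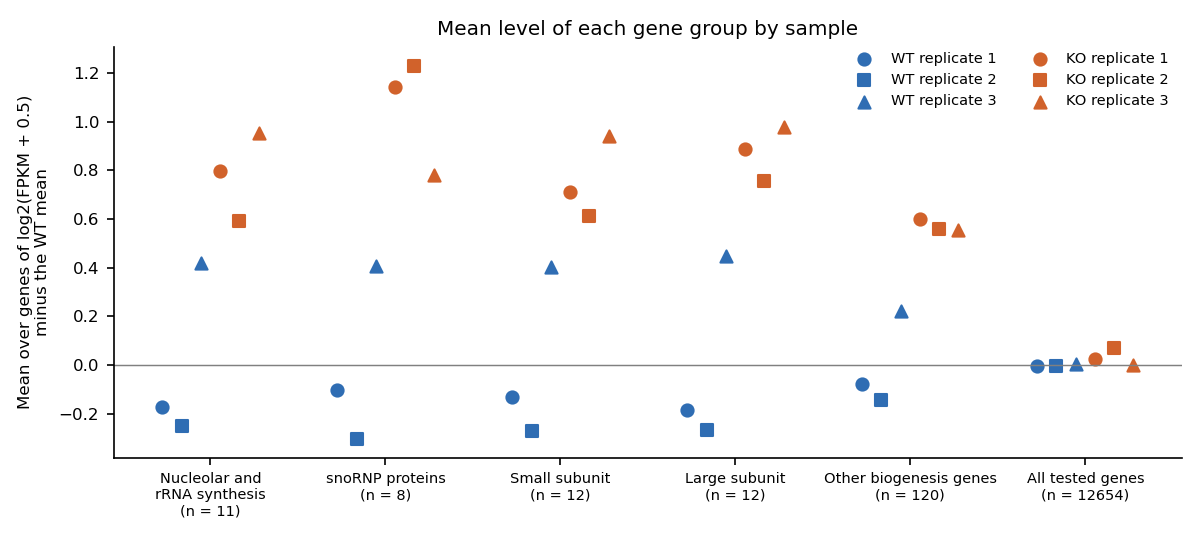
Mean over genes of log2(FPKM + 0.5) minus the WT mean (vertical axis) in each of the 6 samples, for the 4 role groups, for 120 other ribosome biogenesis genes and for all tested genes. In the 4 role groups WT replicate 3 lies at 0.40 to 0.45, between the other WT samples (-0.30 to -0.10) and the KO samples (0.59 to 1.23), and all tested genes lie near 0.

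The order within the KO group ran with base composition. The 26 genes led by KO replicate 3 had a median GC content of 52.4% in their longest GENCODE M21 transcript, and the 12 led by KO replicate 2 had 44.9%. The longest transcript was taken whatever its type, so it need not be the main mRNA of the gene. Among the 12, those of Nop58 and Wdr12 had 9507 and 10012 bases. Across the 43 genes, GC content correlated with the log2 difference between KO replicates 2 and 3 at Pearson's r = -0.55 (Spearman's rho = -0.55), and with the difference of WT replicate 3 from WT replicates 1 and 2 at r = 0.59 (rho = 0.60). Over 12640 tested genes with a transcript the values were r = -0.30 and 0.20 (rho = -0.34 and 0.27). With the KO minus WT difference itself, GC content had r = -0.18 across the 43 (rho = -0.15) and -0.16 over all (rho = -0.19). These are descriptions across genes of the same 6 libraries, and genes are not independent replicates. The part of base composition, of the mitochondrial read share or of the makeup of the libraries in these orders was not tested.

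**Figure D4:**
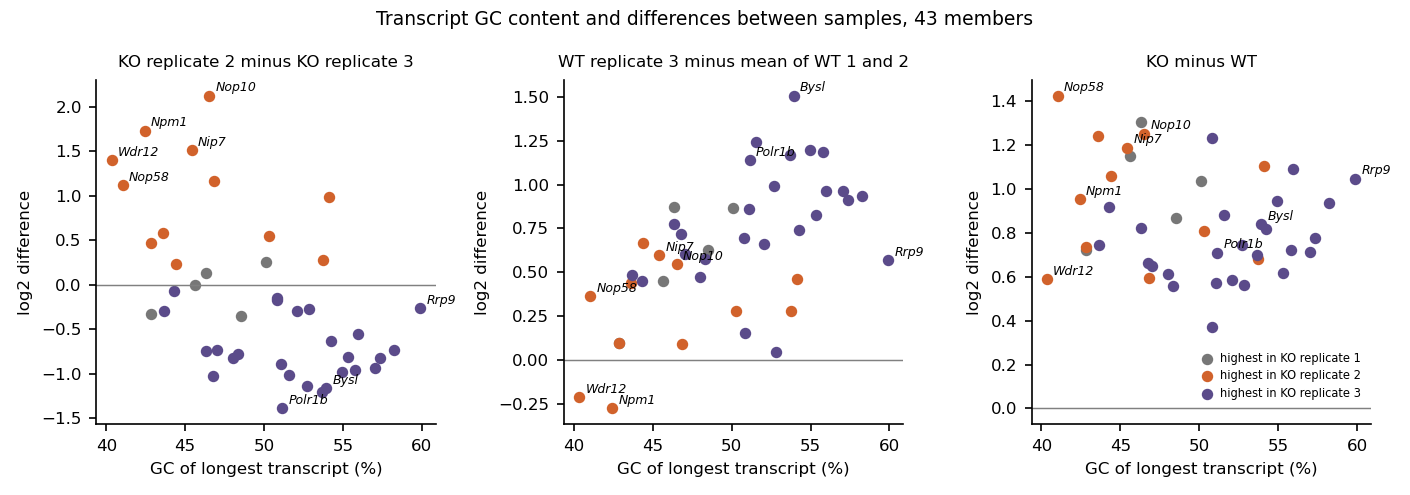
GC content of the longest transcript of each of the 43 genes (horizontal axis, percent) against 3 log2 differences (vertical axes): KO replicate 2 minus KO replicate 3, WT replicate 3 minus the mean of WT replicates 1 and 2, and KO minus WT. Colours give the KO sample in which the gene is highest. The first difference is lower at higher GC content (r = -0.55), the second higher (r = 0.59), and the KO minus WT difference is above 0 at every GC content.

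The call of single genes depended on which libraries were kept. Without KO replicate 3, 17 of the 43 were called by limma (39.5%), all higher in KO, against 8.12% of all genes called higher. At an unadjusted p under 0.05 there were 23 of the 43, fewer than the 27 of the main fit. Over all 12654 tested genes, 2470 were then higher at that p, more than the 1459 of the main fit. The median log2 fold change of the 43 was 0.69, and 25 did not overlap, against 28.2% of all genes with KO above WT. Nop14 was then the gene of smallest log2 fold change, at 0.31. Without both samples numbered 3, a choice made after seeing the data, 28 of the 43 were called (65.1%), against 8.4% of all genes as higher. In that setting 41 had an unadjusted p under 0.05, against 20.7%, and the KO samples lay above the WT samples for all 43, against 35.4% of all genes. Without WT replicate 3, 0 were called. Then 39 had an unadjusted p under 0.05, against 11.8% of all genes as higher, and 40 did not overlap, against 22.2% of all genes with KO above WT. Without KO replicate 2, 0 were called. Then 32 had an unadjusted p under 0.05, against 9.92% of all genes as higher, and 32 did not overlap, against 19.5% of all genes with KO above WT. Without WT replicate 1, 18 had an unadjusted p under 0.05, against 6.69% of all genes as higher. Without WT replicate 2 the count was also 18, against 5.65%.

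Other genes of ribosome biogenesis were taken from 5 lists by function. The lists were chosen with earlier results of these data known. They were read in the same libraries, so they are not an independent test of the genes described above. Of these other genes, 113 of 120 (94.2%) were higher in KO, with a median log2 fold change of 0.60 and 0 called by limma. Without adjustment, 57 passed 0.05 as higher and 1 as lower, against 11.5% and 10.2% of all tested genes. All KO samples were above WT in 57, against 14.5% of all tested genes. Of the 120, 96 were higher with each sample rescaled to the same sum of FPKM, against 34.3% of all tested genes. The snoRNP assembly genes were higher in 9 of 9 (median 0.76, 6 at an unadjusted p under 0.05). Snu13, a protein of box C/D particles, had 55.1 ± 5.77 and 119 ± 48.7 FPKM, the ATPase gene Ruvbl1 33 ± 8.75 and 55 ± 7.32 FPKM, and Znhit6 4.67 ± 0.763 and 11.9 ± 3.55 FPKM (log2 fold change 1.23, SE 0.248, limma adjusted p 0.0954). The small subunit list was higher in 41 of 42 (median 0.67, 21 at an unadjusted p under 0.05). Imp3 and Fcf1, its members of highest FPKM, had 81.4 ± 1.38 and 143 ± 63.6 FPKM and 59 ± 4.2 and 115 ± 59.9 FPKM with overlap, and Wdr36 had 21.6 ± 3.06 and 38.3 ± 2.03 FPKM (log2 fold change 0.82, SE 0.162, limma adjusted p 0.0945) without. The large subunit list was higher in 41 of 44 (median 0.57, 23 at an unadjusted p under 0.05). Rsl1d1, a nucleolar protein, had 87.8 ± 11.1 and 190.0 ± 57.9 FPKM and the GTPase gene Gtpbp4 9.34 ± 1.12 and 19.8 ± 2.64 FPKM (log2 fold change 1.04, SE 0.172, limma adjusted p 0.0884). Nop53, a nucleolar factor that recruits the exosome, was the most abundant of that list with Rsl1d1 and went the other way, at 146, 148 and 116 FPKM in the WT samples and 95.7, 113 and 105 FPKM in the KO samples (log2 fold change -0.38, SE 0.182, limma adjusted p 0.271), all KO samples being below all WT samples, as in 13.3% of all tested genes. The exosome list, which holds the RNA-trimming complex of late processing, was higher in 13 of 13 (median 0.63, 6 at an unadjusted p under 0.05). Its members Exosc3 and Exosc8 had 49.1 ± 4.18 and 75.8 ± 15.8 FPKM and 35.1 ± 3.35 and 46.8 ± 14.8 FPKM, and Exosc2 had 16.5 ± 3.82 and 29.2 ± 0.749 FPKM (log2 fold change 0.83, SE 0.19, limma adjusted p 0.107).

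The polymerase I list was the least uniform, with 9 of 12 higher and a median of 0.31, and 1 gene in each direction at an unadjusted p under 0.05. Cd3eap, a polymerase I subunit, had 6.34 ± 1.05 and 9.87 ± 0.831 FPKM (log2 fold change 0.61, SE 0.173, limma adjusted p 0.13), and the subunit genes Polr1d and Znrd1 had 42 ± 4.13 and 46.6 ± 10.9 FPKM and 44.8 ± 7.12 and 59.4 ± 19.4 FPKM with overlap. The choice of the 3 genes lower in KO followed their values. They were Ttf1, a terminator of polymerase I, at 6.67, 7.0 and 7.04 FPKM in the WT samples and 5.06, 4.92 and 5.92 FPKM in the KO samples (log2 fold change -0.36, SE 0.148, limma adjusted p 0.222), Taf1c, a subunit of the promoter selectivity factor, at 6.78 ± 1.83 and 4.26 ± 1.59 FPKM (adjusted p = 0.258 in limma), and Tcof1, the treacle protein, at 30.1 ± 11.4 and 28.8 ± 16.2 FPKM (adjusted p = 0.87 in limma). Whether this list differs from the 43 or from the other lists was not tested.

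**Figure D5:**
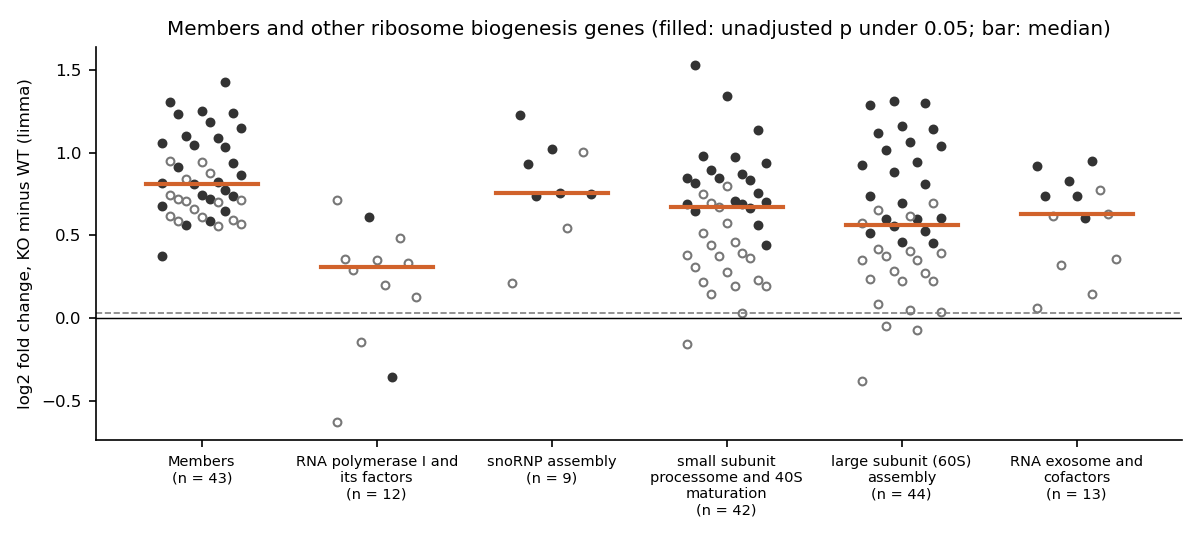
Log2 fold change (KO minus WT, limma, vertical axis) of the 43 genes and of 120 other ribosome biogenesis genes in 5 lists; each symbol is a gene, filled where the unadjusted p is under 0.05, the orange bar is the median and the dashed line the median of all tested genes (0.03). The medians are 0.81 for the 43 genes and 0.31, 0.76, 0.67, 0.57 and 0.63 for the lists from left to right.

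Absolute levels spanned a wide range. Per unit of gene length, 5 of the 43 had a mean of at least 100 FPKM over the 6 samples (Npm1, Ncl, Nhp2, Nop10 and Pa2g4) and 7 were under 10 FPKM (Noc3l, Polr1e, Bysl, Utp20, Polr1b, Rrp1b and Polr1a). The means ran from 1601 FPKM for Npm1 to 4.62 FPKM for Polr1a, and Ncl, Nhp2 and Nop10, at 201, 183 and 169 FPKM, were closer to each other than the spread of the KO samples of Nhp2 and Nop10. The deposited gene length equals the union of all exons in GENCODE M21 for 39 of the 43, which counts retained introns and rare exons, so levels of genes with long models, such as Ncl (10188 bases) and Wdr12 (11955 bases), are lower on this scale than a single transcript would give. Exons of 18 of the 43 overlap exons of a gene on the other strand, the library kit keeps strand, and the strand setting of the counting was not stated. The 18 had a median log2 fold change of 0.83 and the other 25 had 0.74.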

How the data were processed

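RNA of 6 libraries of activated CD8 T cells was sequenced after a stranded mRNA library preparation, per the labels' protocols. The submitters' processing notes name the mm10 build, featureCounts 1.5.0-p3, HISAT2 2.0.5, DESeq2 and Trim Galore. The authors deposited 1 table with FPKM per gene and sample and the gene length; whole reads were rebuilt from FPKM and length (at least 99.9942% of values within 0.05 of a whole number). Genes averaging 0.5 FPKM or more were tested on log2(FPKM + 0.5) with limma 3.58.1 in R 4.3.3 (trended variance, genotype as the only term, Benjamini-Hochberg over all 12654 tested genes), and called at an adjusted p under 0.05. The script was tested on simulated data with noise drawn separately for each gene, without shifts shared by the genes of a library. It recovered 79 of 100 genes changed 2-fold and 100 of 100 changed 4-fold, and called 15 unchanged genes. For lack of such shifts, the simulation does not show how the fit behaves on these libraries. Tables and plots used Python 3.11.15, pandas 2.3.3 and matplotlib 3.10.9.

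The 43 genes, the pathway lists and the marker lists were chosen with earlier results of these data known. Values in every sample were given, by rule, for the 3 members of highest mean FPKM in each role group and the 3 of largest fold change without overlap, and for genes whose promoter sequence is shown. Of each pathway list, the 2 of highest FPKM and the 1 of smallest p were named. GC content, gene positions and overlaps came from GENCODE M21, and promoter windows from RefSeq (GRCm38.p6). Alternatives were other pseudocounts, filters, scalings, weights and tests, a replicate block and leaving out each library. All alternatives for the counts without overlap and for the other ribosome biogenesis genes, and leaving out both samples numbered 3, were added after seeing the data.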

Additional observations from a re-analysis of the deposited data

How the results depend on the processing

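All 43 genes were higher in KO under each of the 17 alternatives, and the lowest log2 fold change was 0.12 (Polr1e, samples rescaled to the same sum of FPKM). Over all genes limma called 5. This became 6710 with array weights, 1 with limma-voom on rebuilt reads, 3 without a filter, 14 without a variance trend, 3 with a pseudocount of 1, 12 with the replicate block, 1863 without both samples numbered 3, and 2 to 1733 when 1 library was left out. Of the 43 genes, 0 were called. This became 43 with array weights (28.1% of all genes were then called higher), 28 without both samples numbered 3, and 0 to 17 when 1 library was left out. The array weights were 9.096 for KO replicate 1, 0.355 for KO replicate 2 and 0.192, the lowest, for KO replicate 3. The KO side of the fit with array weights thus rested mostly on KO replicate 1. The 27 genes that passed an unadjusted p of 0.05 became 43 with array weights (31.3% of all genes were then higher at that p), 14 with the same sum (3.83%), 41 without both samples numbered 3 (20.7%), and 18 to 39 when 1 library was left out (18 without WT replicate 1, with 6.69% of all genes, or 2, with 5.65%). The median of 0.81 became 0.54 with the same sum and 0.66 to 1.08 when 1 library was left out. The 21 genes without overlap became 8 with the same sum (5.70% of all genes), 43 without both samples numbered 3, and 21 to 40 when 1 library was left out. The 57 other ribosome biogenesis genes became 103 with array weights, 19 with the same sum, and 37 to 67 when 1 library was left out. The causes were not tested.

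With the replicate block, 38 of the 43 passed an unadjusted p of 0.05 (12.4% of all genes were higher at that p) and 0 were called. Deviations of same-numbered samples from their group means correlated across genes at 0.13, 0.067 and 0.33. Each mean was taken over the same few samples, so these correlations are tied to each other. KO replicates 1 and 3 correlated best with the WT sample of the same number, and KO replicate 2 with WT replicate 1 (0.27). The main fit did not take the numbers as pairs, and whether they are pairs was not tested.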

Other observations

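Many snoRNAs are made from introns of host genes, and GENCODE M21 places 21 snoRNA genes inside 7 of the 43 genes. Of these, 12 had 0 reads in all 6 libraries. The other 9 had at most 33 reads in a sample. The library kit was one for mRNA, and these values give no measure of snoRNA levels.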
